A study of Mus musculus with 4 samples.

Results

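The miR-26 and miR-29 families are 2 groups of mature miRNAs that have been described as enriched in cultured rodent astrocytes. Their guide strands, the strands that are loaded to silence target mRNAs, were taken by name: mmu-miR-26a, mmu-miR-26b, mmu-miR-29a, mmu-miR-29b and mmu-miR-29c, which makes 5 of the 611 mouse miRNAs on the array. The cells were neural progenitors that had been made from mouse embryonic stem cells and kept as neurospheres, floating balls of dividing neural cells. There were 4 samples, each on 1 one-colour array: secondary neurospheres titled NFIA OE and titled control (passage 1, day 12 of culture counted from embryoid bodies), and primary neurospheres titled NFIA OE and titled control (passage 0, day 6). OE marks overexpression, and NFIA is a transcription factor with a known role in the switch to making astrocytes. In both passages the overexpressing and the control cells shared mixed spheres and were sorted apart by fluorescence, per the series' design text. The promoter and vector behind the overexpression are not given in the sources used here.

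Titles and source names contradict each other on which cells overexpress NFIA, in both passages. Groups follow the titles here, and every difference between titles would change its sign if the source names were right. No array had a replicate, so the 2 arrays of a title are 1 from each passage. Passage and days in culture went together and cannot be told apart.

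miRNAs of a family share a seed, the stretch near the 5′ end that pairs with target mRNAs, and so share most of their predicted targets. The miR-26 genes lie in introns of a small family of phosphatase genes, and in zebrafish miR-26b was found to silence its host ctdsp2 as neurons form. miR-29 is known for silencing collagens and DNA methyltransferases, and in the mouse brain it becomes abundant as neurons and glia mature after birth. The mature sequences are shown because the members differ by few bases outside the seed. They are written 5′ to 3′ from RefSeq (GRCm38.p6), with the seed (bases 2 to 8) in capitals, and all 5 members were matched.
mmu-miR-26a: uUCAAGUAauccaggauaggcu
mmu-miR-26b: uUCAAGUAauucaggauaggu
mmu-miR-29a: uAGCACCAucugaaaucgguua
mmu-miR-29b: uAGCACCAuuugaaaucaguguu
mmu-miR-29c: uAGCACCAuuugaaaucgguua

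Both miR-26 members carried the seed UCAAGUA and all 3 miR-29 members the seed AGCACCA. With positions counted from 1 at the 5′ end, miR-26a and miR-26b differed by C11U and C21U over the 21 positions they share (miR-26a base first), and miR-26a was 1 base longer. miR-29a and miR-29c differed by C10U alone (miR-29a base first). miR-29b differed from miR-29c by A18G, G21U and U22A (miR-29b base first), and it alone ended in AGUGUU, letters that direct miR-29b to the nucleus in human cells. The scanner files hold no probe sequences, so how far the probes separate such close members was not tested.

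The members come from 7 genes. In GRCm38.p6, Mir26a-1 lies at chr9:119031796-119031885 within Ctdspl, Mir26a-2 at chr10:126995530-126995613 within Ctdsp2 and Mir26b at chr1:74394310-74394394 within Ctdsp1, all on the plus strand. Mir29a (chr6:31062660-31062747) and Mir29b-1 (chr6:31063023-31063093) lie 275 bases apart on the minus strand, outside any other listed gene. Mir29b-2 (chr1:195037040-195037120) and Mir29c (chr1:195037547-195037634) lie 426 bases apart on the plus strand within A330023F24Rik. Mature miR-26a and miR-29b can each come from 2 genes, and an array reads only their sum.

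The arrays detected 186 to 220 miRNAs, and 153 were detected on all 4. Over the probes detected on all 4, the 75th percentile of signal was lowest, at 167 units, on the primary control-titled array, against 261 to 443 units elsewhere. Each array was divided by that percentile, and normalised values are given in scanner units after bringing the arrays to their common mean. miR-9 and miR-9*, miRNAs of neural progenitors, were detected on every array. Summed over their probes, they stood at 3577 and 5617 units on the secondary arrays titled NFIA OE and control, against 987 and 1026 on the primary ones. The 11 pluripotency miRNAs summed to 339 and 166 units on the secondary arrays (7 and 1 detected), against 3111 and 3635 on the primary arrays (11 and 10 detected), in the same order of titles. Sums take in every probe of the listed miRNAs, detected or not. Neuronal miRNAs (4 or 5 of 5 detected) summed to 412 and 676 units on the secondary arrays and 700 and 1291 on the primary arrays, and oligodendrocyte miRNAs (1 or 2 of 3 detected) to 545 and 710 against 563 and 1120, in that order too. The 6 mesenchymal and endothelial miRNAs summed to 726 and 673 units on the secondary and primary arrays titled NFIA OE, against 137 and 206 on those titled control, with miR-126-3p, miR-143 and miR-145 undetected throughout. Of 6 blood and microglial miRNAs, 0 were detected on the secondary arrays and 1, miR-155, on the primary arrays, with sums of 27.0 to 63.7 units. The part of these lists in the results that follow was not tested, and fewer cells of a type and less RNA per cell cannot be told apart in such samples.

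miR-26a had the highest signal of the members. Over its 2 probes it stood at 453 units in the secondary array titled NFIA OE, 501 in the secondary array titled control, 475 in the primary array titled NFIA OE and 352 in the primary array titled control. With this scaling the primary array titled control was thus the low one, and the other 3 lay close together. In the authors' processed values it was also the lowest, at 14.2. There the primary array titled NFIA OE stood at 17.3, and the secondary arrays titled NFIA OE and control at 25.9 and 31.3. In the normalised values, no spot of either probe on the primary array titled control reached the lowest spot of the same probe on any other array. For the brighter probe the spots there ran up to 539 units, while the lowest elsewhere was 576. All spots of an array share its RNA and its scale, so their separation does not bear on the order of arrays.

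miR-26b, which shares the seed, had a flatter profile with another order of arrays. It stood at 263 units in the secondary array titled NFIA OE, 270 in the secondary array titled control, 323 in the primary array titled NFIA OE and 293 in the primary array titled control. With this scaling both primary arrays were above both secondary arrays, and the 2 probes gave almost the same differences (by passage -0.30 and -0.29 log2 in cells titled NFIA OE, and -0.11 and -0.12 in those titled control). The 2 probes share the scale of their array, so their likeness does not bear on the order of arrays. That order was reversed in the authors' processed values, at 14.9 and 16.6 on the secondary arrays against 11.6 and 11.6 on the primary ones.

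miR-29c had the widest range of the 4 members detected on every array. Its values were 63.2 units in the secondary array titled NFIA OE, 73.5 in the secondary array titled control, 60.0 in the primary array titled NFIA OE and 41.9 in the primary array titled control. As for miR-26a, the primary array titled control was lowest and the secondary array titled control highest.

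miR-29b followed the same order of low and high. It was read by 1 probe, at 51.9 units in the secondary array titled NFIA OE, 62.1 in the secondary array titled control, 56.1 in the primary array titled NFIA OE and 44.3 in the primary array titled control. The other probe of miR-29b was not detected on any array (0 of 4), with means of 3.25 to 11.6 units. Before scaling, that probe's means were 10.1 and 17.7 units on the secondary arrays titled NFIA OE and control, and 8.13 and 1.87 on the primary ones. The median negative-control signals before scaling were 2.92, 3.03, 2.99 and 3.72 units, in the same order.

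miR-29a was the member whose detection differed between passages. Its brighter probe had all 10 spots well above background in the secondary array titled NFIA OE and all 6 spots kept in the secondary array titled control, against 1 of 10 and 0 of 10 in the primary arrays titled NFIA OE and control. The means were 29.7 and 34.5 units in the secondary arrays, against 14.6 and 13.6 units in the primary arrays, in the same order. The primary signals were not well above background, so only a lower bound can be given for the difference. The dimmer probe was detected only on the secondary array titled control, where 6 of its 9 spots were well above background.

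**Figure D1:**
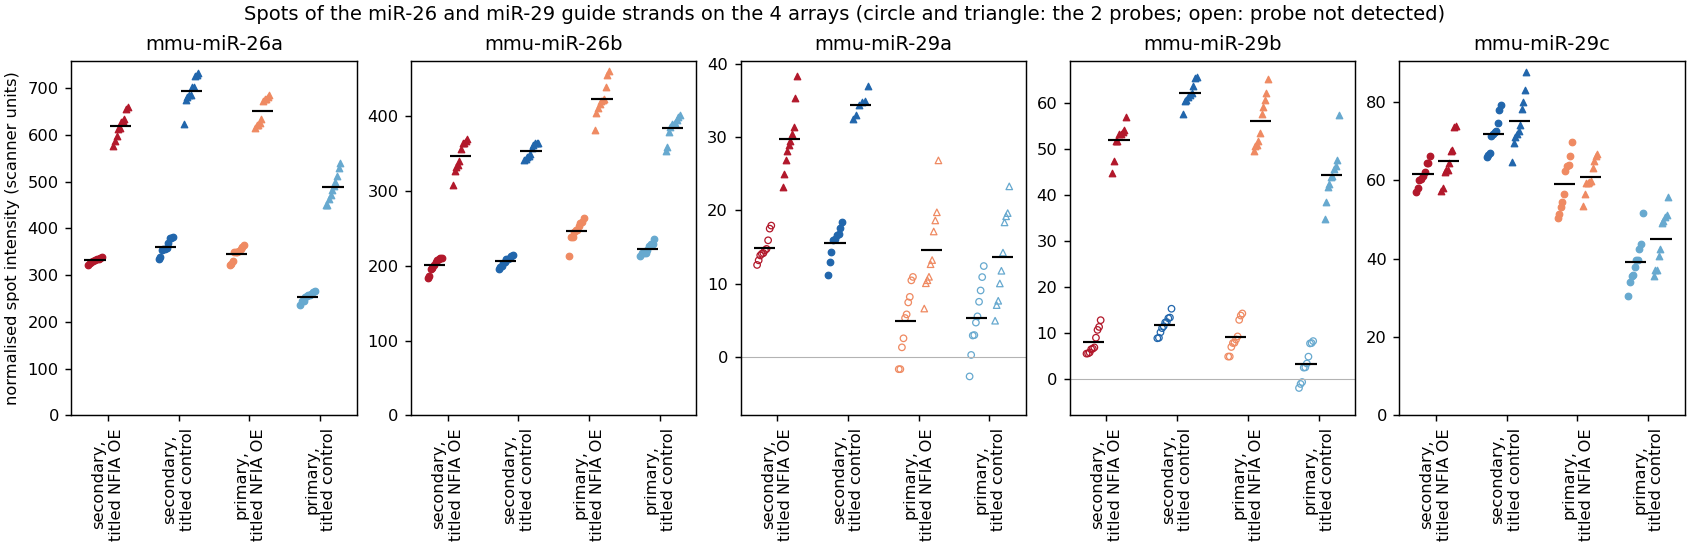
Normalised spot intensity (scanner units, linear axes, each panel on its own scale) of the 5 members on the 4 arrays. Circles and triangles are the 2 probes of a miRNA, open symbols mark a probe not detected on that array, and bars are means over spots. miR-26a, miR-29b and miR-29c are lowest on the primary array titled control, miR-26b is higher on both primary arrays, and miR-29a is detected only on the secondary arrays.

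The comparison by title asked whether the members differ with NFIA overexpression. Over both passages 0 of the 4 tested members was called by limma, at a Benjamini-Hochberg adjusted p under 0.05 over 153 miRNAs, and 0 had an unadjusted p under 0.05. Across all 153 miRNAs, 4 were called (2.61%) and 16 had an unadjusted p under 0.05. The log2 differences, titled NFIA OE minus titled control, were 0.14 for miR-26a, 0.05 for miR-26b, 0.04 for miR-29b and 0.15 for miR-29c (SE 0.29, with 2 arrays of each title; adjusted p from limma 0.92 to 0.971). Their median was 0.10, while the median of all 153 miRNAs was -0.0022. The 95% intervals reached from -0.44 to 0.73 for miR-26a and from -0.43 to 0.73 for miR-29c. For miR-26b and miR-29b the sign depended on the scaling, and it was negative under 5 and 7 of 14 alternatives.

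The 2 passages went opposite ways. In the primary pair all 4 measured members were higher on the array titled NFIA OE, with log2 differences of 0.43 for miR-26a, 0.14 for miR-26b, 0.34 for miR-29b and 0.52 for miR-29c. In the secondary pair all 5 members were lower on the array titled NFIA OE, at -0.14 for miR-26a, -0.035 for miR-26b, -0.21 for miR-29a, -0.26 for miR-29b and -0.22 for miR-29c. With quantile normalization miR-26b stood at 0.0021 in the secondary pair, and with normexp miR-29a at 0.039. The median miRNA stood at -0.08 in both pairs, so miR-26b lay above it in the secondary pair too. Of the miRNAs detected on both arrays, 81 of 195 were higher on the array titled NFIA OE in the secondary pair. In the primary pair 79 of 179 were. A lower value on that array was thus the more common one across all miRNAs. No member reached 2-fold in either pair (0 of 5 in the secondary and 0 of 4 in the primary pair), compared with 9 of 195 miRNAs detected on both secondary arrays (4.62%) and 16 of 179 on both primary arrays (8.94%). A single pair has no replicate, and whether the title difference changes with passage was not tested, because the fit takes that change as its residual. Without scaling, 2 members reached 2-fold in the primary pair.

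**Figure D2:**
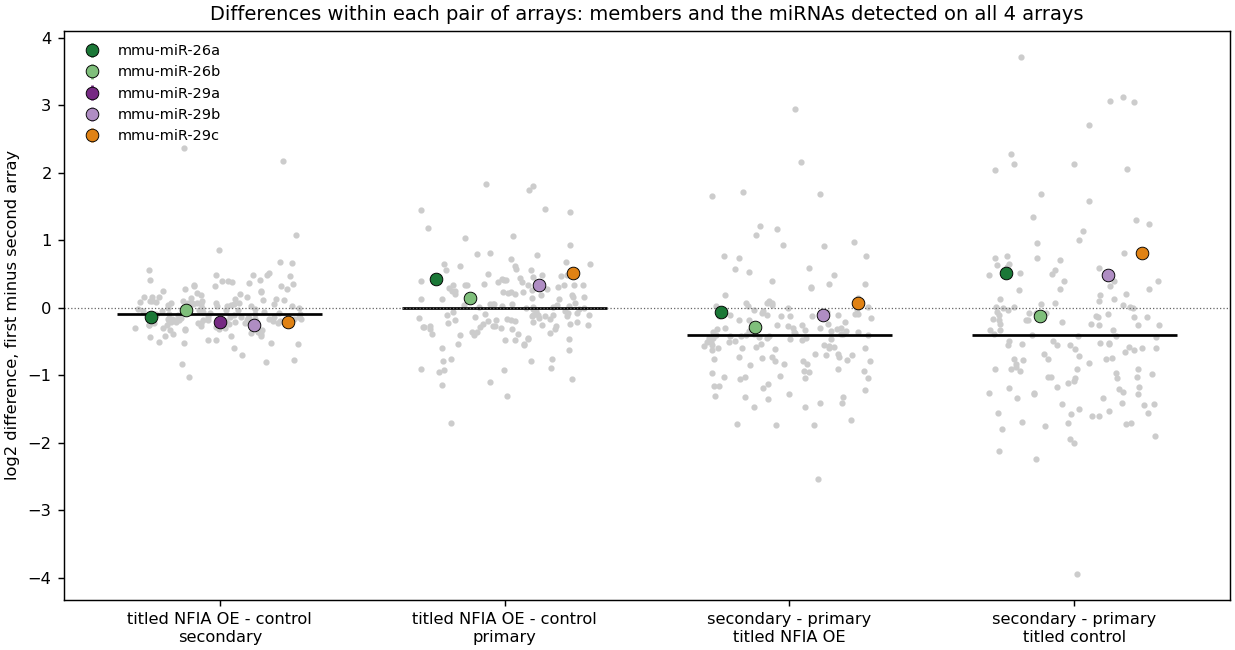
Log2 difference within each pair of arrays (first minus second, y axis) for the members (coloured, with the standard error over spots, mostly smaller than the symbol) and for the 153 miRNAs detected on all 4 arrays (grey), with black bars at the median of those miRNAs. Members lie above the median in the primary pair by title, near or below 0 in the secondary pair, and above the median in both pairs by passage.

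The comparison by passage asked how the members differ between secondary and primary neurospheres. miR-29a was detected on both secondary arrays and on neither primary array, and was at least 1.34-fold higher in secondary neurospheres (log2 bound 0.42). That bound sets the mean of its detected probe, 5.0 log2 units in the secondary arrays, against 4.58 in the primary arrays, where each array's lowest detected signal stood in for the dimmer signal of miR-29a (measured mean 3.82). By pair it was at least 1.60-fold higher in cells titled NFIA OE and at least 1.12-fold in cells titled control, where the lowest detected signal of the dim primary array was 30.8 units. No p is given, because miR-29a passes a filter on low signal only through the secondary arrays. The share of all miRNAs detected on both secondary arrays and on neither primary array is not given here. In all, 207 and 209 miRNAs were detected on the secondary arrays titled NFIA OE and control, against 220 and 186 on the primary ones. With normexp background correction the bound fell under 1-fold, so no fold can be given there.

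Of the 4 members detected on all arrays, 0 were called by limma by passage, and 0 had an unadjusted p under 0.05. Of all 153 miRNAs, 70 were called (45.8%) and 78 had an unadjusted p under 0.05. The log2 differences, secondary minus primary, were 0.44 for miR-29c, 0.22 for miR-26a, 0.19 for miR-29b and -0.21 for miR-26b (SE 0.29, with 2 arrays of each passage; adjusted p from limma 0.215 to 0.613). The interval for miR-29c reached from -0.14 to 1.03.

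These differences move with the scaling of the arrays, as do those of all miRNAs, whose median was -0.39. Relative to that median miR-29c was higher in secondary neurospheres by 0.83 (1.78-fold, SE 0.29, 95% interval 0.25 to 1.42, limma adjusted p = 0.0196), and it was the 1 member called of 4. In that direction 26 of 153 miRNAs were called (17%). miR-26a stood at 0.61 (adjusted p = 0.104), miR-29b at 0.58 (adjusted p = 0.127) and miR-26b at 0.18 (adjusted p = 0.715) relative to the median. With the authors' deposited processed values, 3 of the 4 were called higher by limma, miR-29c at 1.08 (adjusted p = 0.0016), miR-29b at 0.90 (adjusted p = 0.0112) and miR-26a at 0.86 (adjusted p = 0.0157), as were 39 of 153 miRNAs (25.5%). When the same deposited values were fitted over all 313 miRNAs with a value on every array, the differences stayed as given and 0 of the 4 were called (limma adjusted p = 0.0663 for miR-29c and 0.114 for both miR-29b and miR-26a), against 38 of 313 miRNAs called higher (12.1%). miR-29c was called under 4 of 14 alternatives. Under all 14, miR-29c lay 0.35 to 1.00 above the median of the miRNAs tested, miR-29b 0.22 to 0.74 and miR-26a 0.09 to 0.71, while miR-26b ran from -0.21 to 0.30. The all-probe percentile, centring arrays on the median, no scaling, the median as reference and leaving out the title term cannot change these distances. The ends of the ranges came from quantile normalization and normexp.

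**Figure D3:**
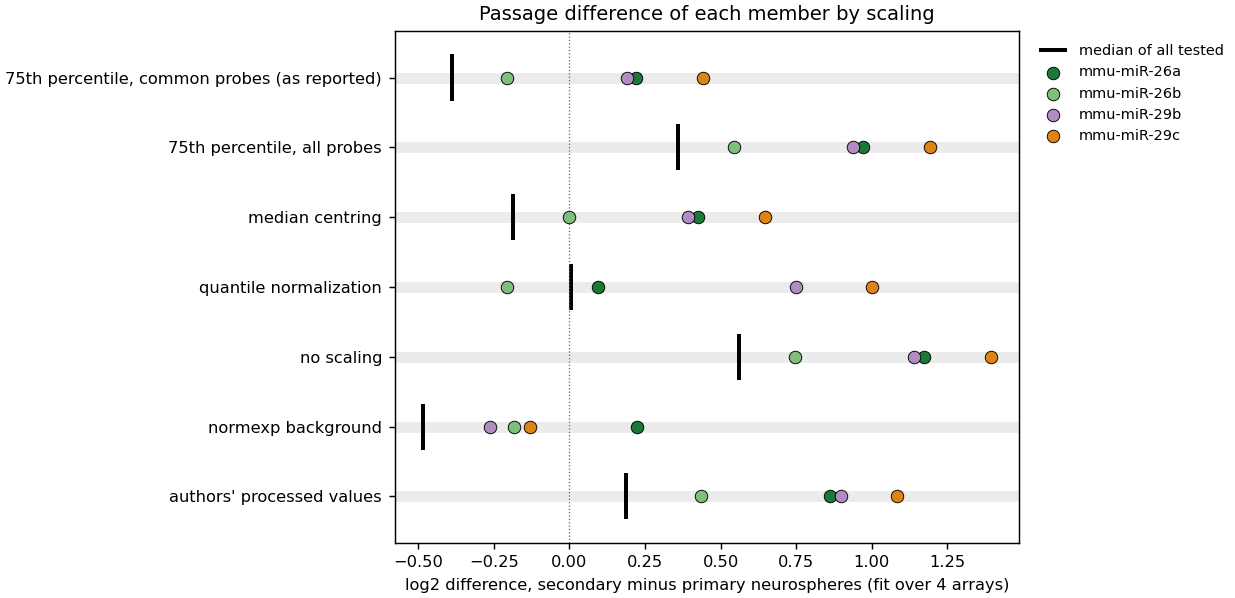
Log2 difference of the 4 members detected on all arrays between secondary and primary neurospheres (x axis) under 7 ways of bringing the arrays to a common scale (rows), with the median of all miRNAs tested as a black bar. The members move with the bar. miR-29c, miR-29b and miR-26a lie to its right in each row, and miR-26b lies to its left under quantile normalization. The authors' values are those fitted over 313 miRNAs, and miR-29a is not drawn.

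By single pair, miR-29c differed by 0.07, miR-26a by -0.066, miR-29b by -0.11 and miR-26b by -0.29 between passages in cells titled NFIA OE, with the median of 188 miRNAs at -0.39. In cells titled control miR-29c differed by 0.81 (1.76-fold), miR-26a by 0.51, miR-29b by 0.49 and miR-26b by -0.12, with the median of 160 miRNAs at -0.41. None of the 4 (0) reached 2-fold in either pair, compared with 42 of 188 miRNAs in cells titled NFIA OE (22.3%) and 57 of 160 in cells titled control (35.6%). The primary array titled control, which is the dimmest, enters both the primary pair by title and the pair titled control, and its part in these differences was not tested. The signal ratio of miR-26a to miR-26b does not depend on how the arrays are scaled by 1 factor each. It was higher in secondary than in primary neurospheres by 0.43 log2, at 0.23 in cells titled NFIA OE and 0.62 in cells titled control. Under the 14 alternatives this ran from 0.30, with quantile normalization, to 0.43, but several of them only rescale the arrays and cannot change it. This difference between the 2 members that share a seed was not tested. For miR-29b over miR-29c the same value was -0.25, at -0.19 in cells titled NFIA OE and -0.32 in cells titled control. Taken the other way, as miR-29c over miR-29b, it ran from -0.07, with no filter, to 0.25.

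Profiles over the 4 arrays were compared by the root-mean-square difference between log2 levels, each centred on its own mean. Between members it was smallest for miR-26a and miR-29b, at 0.05, and largest for miR-26b and miR-29c, at 0.36, so that miR-26a lay nearer to miR-29b than to miR-26b (0.24). Of the other miRNAs detected on all arrays, the 3 nearest to the mean of the miR-26 members were miR-30d, miR-30e and miR-30b, members of a broadly expressed family, at 0.05, 0.05 and 0.06 log2. The 3 nearest to the mean of miR-29b and miR-29c were miR-101a, known for silencing the histone methyltransferase Ezh2, at 0.05, and miR-181b and miR-669f, both at 0.12. Each likeness rests on 4 arrays, and a flat profile has many near neighbours.

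**Figure D4:**
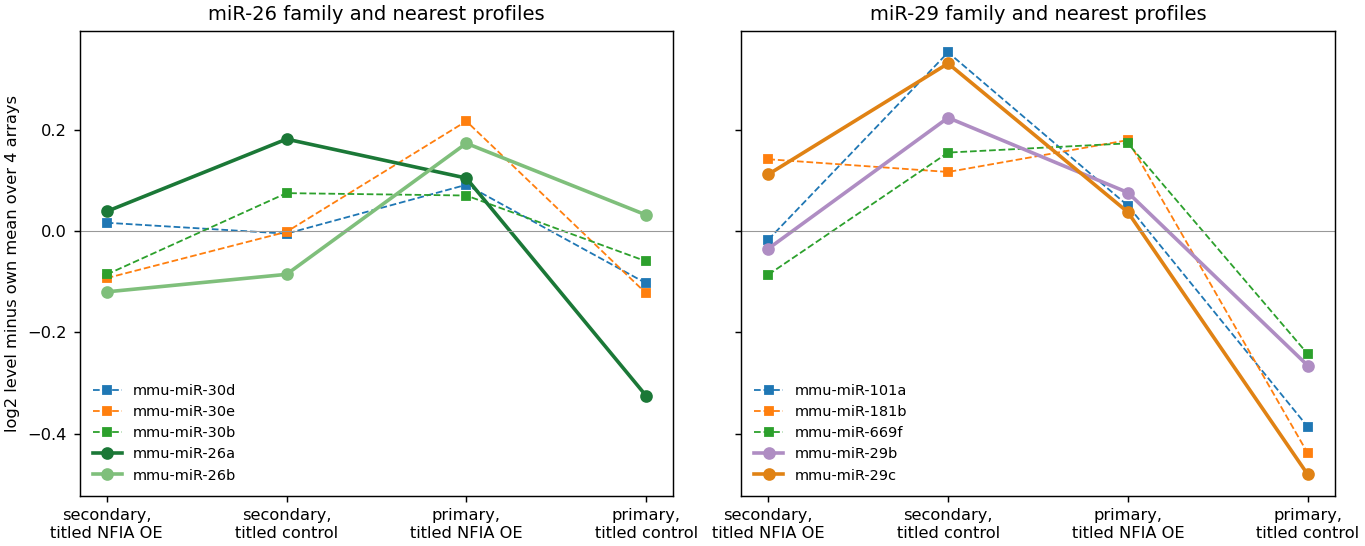
Log2 level minus its own mean over the 4 arrays (y axis) for the members (solid) and the 3 nearest miRNAs by root-mean-square difference (dashed); the lines only link the arrays. The miR-29 members and their neighbours are lowest on the primary array titled control, where miR-29c lies at -0.48, while miR-26b is highest on the primary array titled NFIA OE, at 0.17.

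The partner strands of the same precursors that the array holds were not detected. The array holds miR-26b*, miR-29a*, miR-29b* and miR-29c*, with 4, 4, 4 and 2 probes, and 0 of their probes were detected on any array. Their probe means ran from -3.56 to 7.29 units, the highest for miR-29c*. Among 8 other miRNAs described as astrocyte-enriched or glial, 6 were detected on all 4 arrays, and miR-143 and miR-146a on none. By title 0 of these 6 were called by limma, all 6 with a value above 0, as had 76 of the 153 miRNAs, and a median of 0.22. By passage 2 of 6 were called, both higher in secondary neurospheres, where 20 of 153 miRNAs were called higher (13.1%). They were miR-27a at 1.05 (limma adjusted p = 0.0019) and miR-23a at 0.78 (adjusted p = 0.0213), which come from 1 shared precursor cluster. miR-23b and miR-27b, of the paralogous cluster, stood at -0.25 and -0.18, miR-24, which both clusters encode, at 0.19, and miR-30a at -0.26, and none of the 4 was called.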

How the data were processed

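The authors deposited 1 scanner file per array, holding spot intensity on a linear scale from Agilent Feature Extraction 10.5.1.1, with background subtracted and spatial trends removed but no scaling across arrays, per the file headers. Total RNA with its small fraction was labelled with Cy3, per the labels' protocols. The authors' deposited table of processed intensity is linear and uncentred, and each array's column is the scanner's gene total over a constant of its own (20.3 to 34.1). Its column medians are 0.816, 0.700, 0.830 and 0.882 for the secondary NFIA OE-titled, secondary control-titled, primary NFIA OE-titled and primary control-titled arrays, and the basis of the constants is not stated in the labels.

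Outlier spots were left out (no spot was saturated), spots were averaged per probe, and a probe counted as detected with at least 50% of its spots well above background. Arrays were divided by their 75th percentile over probes detected on all 4, and a miRNA's log2 value was the mean over those probes. limma 3.58.1 in R 4.3.3 fitted title and passage as additive terms on 153 miRNAs, with 1 residual degree of freedom each, an infinite prior and a pooled residual SD of 0.29. With no separate cultures named, its p-values reflect only how far these arrays spread, and with so few arrays precision is limited throughout. All arrays share 1 slide, and position on it is confounded with the groups. Named miRNAs were the 5 members, the other strands of their precursors, the 3 miRNAs nearest each family, a list of 8 other glial miRNAs and some from the cell type marker lists. Members, lists and tests were chosen with earlier results of these data known. Results were recomputed under 14 other settings of scaling, background, detection and input, 2 of them chosen after seeing the data.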

Additional observations from a re-analysis of the deposited data

Results flagged for a closer look

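Of the 5 members, 4 had title differences of opposite sign at the 2 passages, none of which was tested. Such a change of sign is not particular to the members. It was also seen for miR-30b, miR-30e and miR-101a, though not for miR-30d, and the share over all miRNAs is not given here. As log2 of titled NFIA OE over titled control, miR-26a stood at -0.14 at passage 1 and 0.43 at passage 0, miR-26b at -0.035 and 0.14, miR-29b at -0.26 and 0.34, and miR-29c at -0.22 and 0.52. Under 10 alternatives miR-26a kept both signs, and miR-26b at passage 1 turned to 0.0021 with quantile normalization. With normexp background correction the passage 0 values were -0.13 for miR-29b and -0.048 for miR-29c, and that of miR-26b was -0.0013 with the authors' processed values and -0.022 with arrays centred on the median. For passage, miR-26a differed by -0.066 in cells titled NFIA OE and 0.51 in cells titled control, and miR-29b by -0.11 and 0.49. These passage values were not tested for a difference either, and they share their arrays with the title differences, so they are the same numbers seen another way. No group has enough arrays for a search for outlying samples.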

How the results depend on the processing

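Alternatives numbered 12 planned and 2 added after seeing the data (the authors' processed values over every miRNA, and detection on at least 1 array relative to the median). No member was called by title under any of them (0), while only 0 to 7 of all miRNAs tested were called in each. The cause of the changes below was not tested. By title, miR-26b and miR-29b turned to -0.057 and -0.069 with the all-probe percentile, -0.075 and -0.087 with arrays centred on the median, -0.078 and -0.054 with the authors' values (either set of miRNAs), and -0.011 and -0.023 with detection on at least 1 array relative to the median. miR-29b turned to -0.034 with quantile normalization. With normexp, whose offset of 50 units is about the size of the miR-29 signals, miR-29b stood at -0.093 and miR-29c at -0.053 by title, and at -0.26 and -0.13 by passage. miR-26b by passage turned to 0.54 with the all-probe percentile, 0.75 without scaling, 0.44 with the authors' values (either set), 0.18 relative to the median and 0.17 with detection on at least 1 array relative to it.

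The median passage difference of the 4 tested members, 0.20 as reported, was 0.95 with the all-probe percentile, 1.16 without scaling, -0.16 with normexp, 0.88 with the authors' values (either set), 0.59 relative to the median miRNA and 0.58 with detection on at least 1 array relative to it. The number called, 0 as reported, was 1 with the all-probe percentile, quantile normalization or the median as reference, and 3 with the authors' values over the 153 miRNAs, but 0 with them over all 313. Each such call was of a higher value in secondary neurospheres. In the same order of settings, 25, 21, 26 and 39 of 153 miRNAs were called higher, and 38 of 313. The miR-29a log2 bound, 0.42 as reported, was 1.17 with the all-probe percentile, 1.08 with quantile normalization, 1.37 without scaling and -0.32 with normexp. Members at least 2-fold apart, 0 as reported, numbered 2 in the primary pair by title without scaling, and 1 between passages in cells titled NFIA OE with detection on at least 1 array or no filter. In cells titled control they numbered 3 with the all-probe percentile or the authors' values, 2 with quantile normalization or no filter, 4 without scaling and 1 with detection on at least 1 array. Counts with no filter or detection on at least 1 array take in miR-29a. Its primary signals were not detected, so these counts give no 2-fold difference for it. With no filter, miR-29b also takes in its undetected probe. The share of all miRNAs at least 2-fold apart under these settings is not given here. Of the single-miRNA values, 217 kept their sign and side of the threshold or moved little, 38 moved further, 21 turned and 6 gained a call.

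The passage term pairs the title arrays that came from shared spheres. Without it no member was called by title (0), and neither was any of the 153 miRNAs (0), so this says nothing particular about the members. Leaving out 1 array leaves no residual degrees of freedom, so the single-pair differences are those values. Signal over background limits miR-29a and the second miR-29b probe.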
